A study of Mus musculus with 96 samples.

Results

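The 54 collagen and laminin genes described here were followed across 6 genotypes and 2 brain tissues. They were taken by name, from the gene symbols of the mouse count table made of Col, a number, a and a number, or of Lama, Lamb or Lamc and a number, with at least 100 counts summed over all 96 libraries. They are 44 collagen chain genes and 10 laminin chain genes out of 48795 genes in the table. Collagens are trimeric extracellular proteins that fall into fibril-forming, fibril-associated, network-forming, beaded-filament and membrane-bound classes. Laminins are cross-shaped trimers of an alpha, a beta and a gamma chain, and together with type IV collagen they build the basement membranes that wrap blood vessels and underlie the pia. In brain much of this matrix is made by cells of vessels and meninges, while neurons and glia make particular chains, among them membrane-bound and fibril-associated collagens.

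Libraries were made from striatum and cerebral cortex of 48 mice at 6 months of age, all on a C57BL/6 background, with 8 animals of each genotype and 4 of each sex within it. The control groups were WT, Pms1+/- and Pms1-/- mice, and each had a counterpart that also carried 1 copy of the Q140 knock-in, labelled Het (Q140) KI, a model of Huntington's disease. These counterparts are called Q140, Q140 Pms1+/- and Q140 Pms1-/- here. The study crossed this model with animals lacking 1 or both copies of Pms1, a DNA mismatch repair gene. The Pms1 allele, the repeat length and the breeding scheme are not described in the labels. The series text gives 16 per group, which equals the number of libraries of a genotype over both tissues, from 8 animals.

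The 96 libraries held 27993751 to 56364535 counts each. The 54 genes together took 6.10 to 8.66 of every 10000 counts in striatum and 6.11 to 8.26 in cortex. Pms1 itself had a median of 5.38 CPM (counts relative to TMM-scaled library size) in WT striatum, 4.42 in Pms1+/- and 4.12 in Pms1-/-, a log2 fold change of -0.43 (adjusted p = 6.98e-04) for the last against WT. Its reads were thus still counted in Pms1-/- libraries, and in cortex the same contrast gave -0.10 (adjusted p = 0.467). Markers of striatal projection neurons summed to 6443 to 11409 CPM over the striatal libraries and to 235 to 290.0 CPM over the cortical ones. Each animal carries a code whose first number was 16 or higher (late codes) in every Pms1-/- and Q140 Pms1-/- animal, in 2 WT, in 3 Q140 and in 1 Q140 Pms1+/- animal. The labels do not say what the first number stands for. Pms1 loss and code period overlap strongly, and values within the late codes are given beside the Pms1-/- results of the collagens and laminins. The 2 late-coded WT animals are both female and the 3 late-coded Q140 animals are all male. In cortex 3 libraries stood apart with choroid plexus markers at 599 to 751 CPM against at most 20.8 CPM in the rest, and 1 Q140 striatal library had fibroblast markers at 78.9 CPM against at most 44.4 CPM.

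Transcript levels per length, as the FPKM values deposited by the authors, placed different chains at the top of each tissue in WT mice. In striatum Col6a1, a chain of the beaded filaments of type VI collagen, led with 26.9 ± 5.37 FPKM (mean ± SD, n = 8). It was followed by Col11a2, a chain of fibrillar type XI collagen, at 8.66 ± 0.807 FPKM and by Lamc1, the most widespread laminin gamma chain, at 6.78 ± 0.155 FPKM. In cortex the type IV basement membrane chain Col4a2 led at 10.4 ± 1.30 FPKM. Col6a1 followed at 8.72 ± 0.984 FPKM and the other ubiquitous type IV chain, Col4a1, at 7.84 ± 0.612 FPKM. The neighbours Col6a1 and Col4a1 in this cortical order lay within 1 SD of each other, whereas Col6a1 in striatum stood far above the next chain. Above 1 FPKM were 17 of the 54 genes in striatum and 24 in cortex, and the median gene was at 0.520 and 0.841 FPKM, respectively.

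Within classes the leading chain was the same in both tissues for basement membrane, beaded filament, transmembrane and multiplexin collagens and for the laminin alpha and gamma chains. Among transmembrane collagens it was Col25a1, a neuronal collagen known as a component of amyloid plaques, at 3.42 ± 0.389 FPKM in striatum and 3.57 ± 0.612 FPKM in cortex. Among laminin alpha chains it was Lama5, at 1.29 ± 0.116 and 1.46 ± 0.137 FPKM, and among multiplexins, basement membrane collagens that carry heparan or chondroitin sulfate chains, it was Col15a1, at 0.698 ± 0.0778 and 1.62 ± 0.173 FPKM. The anchoring fibril chain Col7a1 lay at 0.525 ± 0.137 and 0.449 ± 0.149 FPKM, and Col26a1 led the 2 remaining collagens at 0.580 ± 0.165 and 1.48 ± 0.260 FPKM. For 4 classes the leader changed with the tissue. Fibrillar collagens were led by Col11a2 in striatum and by Col5a1, at 4.42 ± 0.542 FPKM, in cortex. Fibril-associated collagens were led by Col9a3 (3.10 ± 0.247 FPKM) in striatum and by Col19a1 (5.97 ± 0.683 FPKM) in cortex. Laminin beta chains were led by Lamb1 (5.13 ± 0.216 FPKM) in striatum and Lamb2 (5.34 ± 0.511 FPKM) in cortex, and the short-chain network collagens by Col8a2 (0.418 ± 0.173 FPKM) in striatum and Col8a1 (1.47 ± 0.172 FPKM) in cortex. At the bottom, under 0.1 FPKM, were Col3a1, Col4a3, Col4a4, Col6a6, Col9a1, Col10a1 and Col22a1 in striatum and Col4a3, Col6a5, Col6a6 and Col10a1 in cortex. Col10a1, the chain of growth plate cartilage, was too low for the tests that follow, which covered the other 53 genes.

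The matrix gene set differed between the tissues of WT mice, with more chains lower than higher in striatum. Of the 53 genes tested, 30 were lower and 11 higher in striatum than in cortex (edgeR's quasi-likelihood test, Benjamini-Hochberg adjusted p below 0.05). This fit, like that for the knock-in effect between tissues, treated the libraries of both tissues of an animal as independent. Over all genes, 76% differed, with 37.5% lower and 38.5% higher, so that 56.6% of the members lower stands beside 37.5% of all genes. The median log2 difference, striatum minus cortex, was -0.47 over the members and 0.016 over all genes. Fibrillar collagens were lower for 8 of 11 chains, basement membrane collagens for 5 of 6 and fibril-associated collagens for 6 of 9. Beaded filament collagens went the other way, with 3 of 6 chains higher, and 2 of the 3 laminin beta chains were also higher.

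Among the chains lower in striatum, those with the widest gap were fibrillar, short-chain and fibril-associated collagens. Col5a1, a chain of the fibrillar type V collagen that regulates fibril diameter, ran from 1.91 to 2.94 CPM (median 2.67) in striatum and from 29.0 to 42.8 CPM (median 38.4) in cortex, a log2 difference of -3.91 ± 0.12 (SE, adjusted p = 3.39e-47). Col8a1, a chain of the short-chain network of vessel walls, gave 0.402 to 0.886 CPM (median 0.524) against 6.45 to 8.74 CPM (median 7.75), a log2 difference of -3.72 ± 0.16 (SE, adjusted p = 3.36e-39). Neither chain overlapped between tissues. Col22a1, a fibril-associated chain of tissue junctions, ran from 0.127 to 0.355 CPM (median 0.195) in striatum and 1.98 to 2.88 CPM (median 2.16) in cortex, a log2 difference of -3.45 ± 0.18 (SE, adjusted p = 1.62e-33). Every cortical library therefore held more Col22a1 than any striatal one. Col12a1, which decorates type I fibrils, gave 1.80 to 3.08 CPM (median 2.38) against 9.89 to 19.0 CPM (median 14.2), a log2 difference of -2.59 ± 0.13 (SE, adjusted p = 1.50e-33). The minor fibrillar chain Col24a1 gave 0.923 to 1.76 CPM (median 1.45) against 5.91 to 11.6 CPM (median 7.29), a log2 difference of -2.48 ± 0.16 (SE, adjusted p = 1.38e-26). Of the other 3 of the 8 most reduced chains, Col19a1, a fibril-associated collagen made by some interneurons, differed by -1.99 ± 0.071 (SE, adjusted p = 2.82e-44), and the type I collagen chains Col1a2 and Col1a1 by -1.86 ± 0.13 (SE, adjusted p = 1.52e-22) and -1.40 ± 0.14 (SE, adjusted p = 4.06e-15). All 3 were again separated completely between tissues.

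The 11 chains higher in striatum included 3 beaded filament and 3 fibrillar collagens and 2 laminin beta chains, with 1 each from the transmembrane and fibril-associated collagens and the laminin gamma chains. Col6a5 ran from 1.47 to 6.53 CPM (median 4.33) in striatum and 0.109 to 0.555 CPM (median 0.238) in cortex, a log2 difference of 3.80 ± 0.39 (SE, adjusted p = 4.87e-15). Lamb1, the beta chain of the main embryonic and vascular laminins, ran from 48.7 to 53.6 CPM (median 51.9) and 7.33 to 9.52 CPM (median 8.54), a log2 difference of 2.61 ± 0.055 (SE, adjusted p = 1.03e-64). Lamb1 was at about the same level in every striatal animal and far above every cortical one. Col6a4, another type VI chain, gave 6.81 to 23.2 CPM (median 8.04) against 0.358 to 5.84 CPM (median 0.716), a difference of 2.55 ± 0.37 (SE, adjusted p = 1.91e-09), with a wide spread inside each tissue. Col17a1, the transmembrane collagen of hemidesmosomes, gave 2.52 to 3.40 CPM (median 2.99) against 0.537 to 1.25 CPM (median 0.839), a difference of 1.83 ± 0.15 (SE, adjusted p = 1.14e-20). Col6a1 gave 103 to 169.5 CPM (median 113) against 29.1 to 43.9 CPM (median 39.2), a difference of 1.62 ± 0.11 (SE, adjusted p = 3.58e-24). No library of these chains crossed between tissues. Its partner Col6a2, made from a neighbouring gene, did not pass the test at 0.051 (adjusted p = 0.602). Col2a1, the cartilage fibrillar chain, differed by 1.22 ± 0.14 (SE, adjusted p = 1.24e-12), its type XI partner Col11a2 by 1.07 ± 0.091 (SE, adjusted p = 9.04e-19) and Lamb3 by 0.88 ± 0.10 (SE, adjusted p = 5.37e-14), all without overlap. The remaining higher chains were Col27a1, Lamc1 and Col9a3, at 0.56, 0.51 and 0.48.

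**Figure D1:**
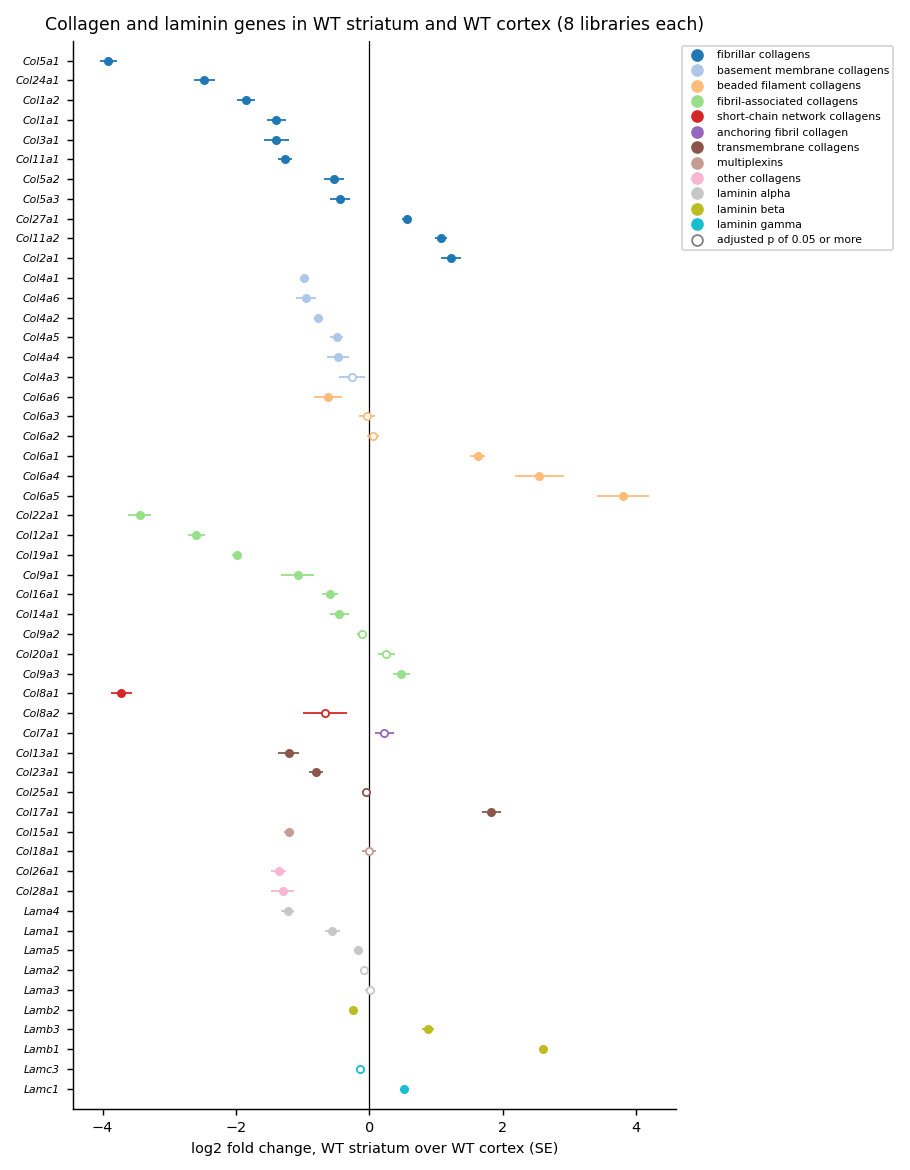
Log2 difference between WT striatum and WT cortex for the 53 genes tested, grouped by class, with bars for the standard error and a line at 0. Most points lie left of 0 (30 called lower in striatum), with Col5a1 at -3.91 at one end and Col6a5 at 3.80 at the other.

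The lower chains in striatum also included both ubiquitous type IV chains, at -0.98 for Col4a1 and -0.76 for Col4a2, and Col4a4, Col4a5 and Col4a6 at -0.95 to -0.47. The rest were Col3a1, Col5a2, Col5a3, Col6a6, Col9a1, Col11a1, Col13a1, Col14a1, Col15a1, Col16a1, Col23a1, Col26a1, Col28a1, Lama1, Lama4, Lama5 and Lamb2, at -1.40 to -0.17. The 12 chains that did not pass the test were Col4a3, Col6a2, Col6a3, Col7a1, Col8a2, Col9a2, Col18a1, Col20a1, Col25a1, Lama2, Lama3 and Lamc3. Fibroblast markers moved with this comparison: 10 of the 11 tested were lower in striatum, and the 12 summed to 33.8 to 44.4 CPM in WT striatum and 98.8 to 156 CPM in WT cortex, with Dpt at a median of 0 in striatum. All 8 oligodendrocyte, 8 microglial, 6 ependymal and 6 oligodendrocyte precursor markers were higher in striatum, and 7 of 8 astrocyte markers were lower. Of 12 mural markers 5 were higher and 1 lower, with sums of 257 to 288 CPM in WT striatum and 231 to 278 CPM in WT cortex. Endothelial markers were at nearly the same level, with sums of 372 to 427 CPM and 349.7 to 418 CPM. Beside these counts, 76% of all genes differed between the WT tissues. The part of these markers in the differences was not tested. In pieces of tissue such as these, fewer cells of a type and less RNA per cell cannot be told apart.

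The Q140 knock-in changed 11 of the 53 genes in striatum, 9 upward and 2 downward. That is 20.8% of the members, below the 31.3% of all genes that passed the same test, with 15.9% of all genes higher and 15.4% lower. The median log2 fold change was 0.096 over the members and 0.012 over all genes. Of the 43 collagens, 7 rose and 2 fell, and of the 10 laminins, 2 rose. No basement membrane collagen passed the test, and the type IV chains ranged from -0.22 to 0.32. These p-values, as those of the other genotype contrasts within a tissue, rest on the spread between animals of a group.

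The changes with the smallest p-values were those of 4 collagens that rose. Col11a1, a chain of fibrillar type XI collagen that nucleates fibrils, ran from 7.18 to 11.7 CPM (median 8.60) in WT and from 12.0 to 15.8 CPM (median 13.3) in Q140, with a log2 fold change of 0.63 ± 0.10 (SE, adjusted p = 1.23e-06). The groups did not overlap. Col6a2 ran from 18.2 to 27.4 CPM (median 21.3) and 27.1 to 36.6 CPM (median 33.1), with a log2 fold change of 0.57 ± 0.090 (SE, adjusted p = 2.42e-06). Only the lowest Q140 library reached into the WT range. Col25a1 ran from 39.3 to 52.7 CPM (median 45.0) and 51.0 to 59.2 CPM (median 54.9), with a smaller log2 fold change of 0.27 ± 0.041 (SE, adjusted p = 4.91e-07) but little spread. Col17a1 ran from 2.53 to 3.42 CPM (median 3.01) and 3.00 to 5.28 CPM (median 3.82), a log2 fold change of 0.41 ± 0.10 (SE, adjusted p = 8.22e-04).

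The other risers changed less or varied more. Col5a3, a type V fibrillar chain, ran from 1.57 to 3.85 CPM (median 2.24) in WT and 2.58 to 4.83 CPM (median 3.83) in Q140, with a log2 fold change of 0.52 ± 0.16 (SE, adjusted p = 0.00948). The fibril-associated Col16a1 ran from 12.8 to 18.7 CPM (median 14.5) and 16.2 to 23.2 CPM (median 18.4), with a log2 fold change of 0.34 ± 0.11 (SE, adjusted p = 0.0163). Groups overlapped for both. Col9a2, a chain of fibril-associated type IX collagen, ran from 5.53 to 6.92 CPM (median 6.18) and 6.02 to 9.52 CPM (median 7.09), a log2 fold change of 0.23 ± 0.072 (SE, adjusted p = 0.0125). Lama5 ran from 13.1 to 16.6 CPM (median 14.8) and 14.4 to 20.4 CPM (median 16.2), a log2 fold change of 0.16 ± 0.060 (SE, adjusted p = 0.0424). Lamb1 ran from 48.9 to 54.1 CPM (median 52.2) and 52.4 to 63.0 CPM (median 57.0), a log2 fold change of 0.15 ± 0.042 (SE, adjusted p = 0.00524). In these 3 the groups overlapped and the steps were small. In the opposite direction, Col20a1, a fibril-associated chain, ran from 2.90 to 5.71 CPM (median 3.83) in WT and 2.65 to 3.64 CPM (median 2.91) in Q140, with a log2 fold change of -0.45 ± 0.12 (SE, adjusted p = 0.00234). Col11a2 ran from 51.5 to 67.2 CPM (median 60.6) and 45.1 to 57.0 CPM (median 53.0), with a log2 fold change of -0.23 ± 0.082 (SE, adjusted p = 0.0302). The 2 type XI chains thus moved in opposite directions, Col11a1 up and Col11a2 down, in the same libraries. Without the Q140 library high in fibroblast markers 10 genes passed, with Col9a2 and Lama5 lost and Lamc1 gained (lower). That count was added after the data were seen, and the share of all genes that passed in that fit is not given here.

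**Figure D2:**
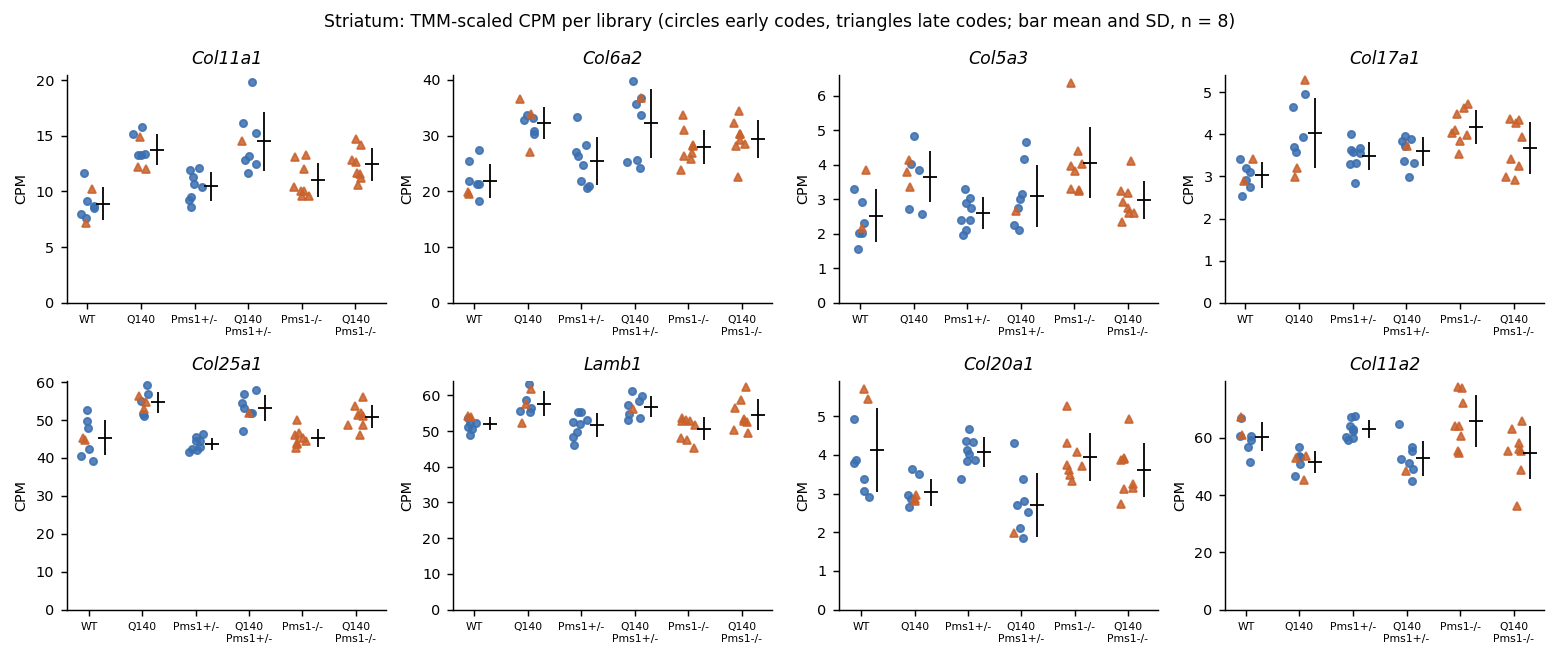
CPM in every striatal library for 8 of the 11 genes that changed in Q140 against WT, by genotype, with a bar for each group's mean and SD. Col11a1 in Q140 lies wholly above WT (12.0 to 15.8 against 7.18 to 11.7 CPM), while Col11a2 and Col20a1 sit lower in Q140.

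Because 3 Q140 animals and 2 WT animals carried late codes, the comparison was repeated inside each code period. Among the early codes (5 Q140 and 6 WT) 11 genes passed the test, where 26.1% of all genes did, 9 of them among the 11 above, and all 11 kept their direction. Col11a1 stood at 0.73 (adjusted p = 7.04e-05) and Col25a1 at 0.32 (adjusted p = 6.71e-05) there. Among the late codes (3 male Q140 and 2 female WT, with the sex term carried by the other late-coded genotypes) 3 genes passed, Col6a2, Col20a1 and Col2a1, where 4.14% of all genes did. Of the 11, 9 kept their direction there, while Col16a1 was at -0.17 and Lama5 at -0.022. The 11 genes had been chosen with these same animals of both code periods, so that a kept direction is no separate test. Over all 53 members the median was 0.14 among early codes, with 40 above 0, and -0.028 among late codes, with 23 above 0. Col11a1 stood at 0.62 (adjusted p = 0.0760).

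Markers of several cell types moved in the same comparison, in which 31.3% of all genes passed. All 8 striatal projection neuron markers fell, from sums of 9926 to 11283 CPM in WT to 6443 to 7366 CPM in Q140. Of the endothelial markers 8 of 12 fell (sums 372 to 427 CPM in WT and 354 to 392 CPM in Q140), of the mural markers 2 of 12 (257 to 288 CPM and 227 to 287 CPM) and of the microglial markers 5 of 8 (402 to 437 CPM and 351 to 407 CPM). Of the 10 fibroblast markers tested 1 rose, Islr, and the sums were 33.8 to 44.4 CPM in WT and 25.6 to 78.9 CPM in Q140. Markers of cortical projection neurons summed to 34.5 to 39.9 CPM in WT striatum and 35.5 to 41.2 CPM in Q140 striatum. Their part in the collagen and laminin changes was not tested.

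Promoter windows are shown for 4 fibrillar or transmembrane chains that the results turn on, 3 that rose and the type XI chain that fell. Each is the 250 bases ahead of the RefSeq transcript start in GRCm38.p6, 5′ to 3′ on the gene's strand, with no annotated exon inside. Col11a1 is at chr3:114030290-114030539 (+), Col25a1 at chr3:130180595-130180844 (+), Col5a3 at chr9:20815068-20815317 (-) and Col11a2 at chr17:34038888-34039137 (+). The Col25a1 window lies inside the longer gene span of GENCODE M21 (chr3:130131501-130599877). Capitals mark matches, on either strand, to a TATA box spelled TATAAA in these searches, the CCAAT box named for its letters, the GC box with the letters GGGCGG or an AP-1 site spelled TGANTCA, and in these windows no match overlaps another.
Col11a1: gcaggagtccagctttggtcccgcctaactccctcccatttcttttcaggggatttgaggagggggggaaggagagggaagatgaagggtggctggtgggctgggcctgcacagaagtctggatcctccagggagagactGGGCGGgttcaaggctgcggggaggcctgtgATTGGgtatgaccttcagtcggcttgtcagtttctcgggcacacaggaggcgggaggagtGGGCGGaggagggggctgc
Col25a1: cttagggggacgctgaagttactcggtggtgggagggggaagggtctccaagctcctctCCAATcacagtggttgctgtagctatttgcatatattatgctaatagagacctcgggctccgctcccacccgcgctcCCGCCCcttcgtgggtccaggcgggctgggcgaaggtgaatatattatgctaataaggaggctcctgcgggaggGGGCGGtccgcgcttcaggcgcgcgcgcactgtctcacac
Col5a3: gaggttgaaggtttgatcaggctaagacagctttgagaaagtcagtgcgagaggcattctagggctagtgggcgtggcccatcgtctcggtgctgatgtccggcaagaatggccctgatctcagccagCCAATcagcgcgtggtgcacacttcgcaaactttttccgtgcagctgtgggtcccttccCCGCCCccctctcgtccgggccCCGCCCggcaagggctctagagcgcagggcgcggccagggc
Col11a2: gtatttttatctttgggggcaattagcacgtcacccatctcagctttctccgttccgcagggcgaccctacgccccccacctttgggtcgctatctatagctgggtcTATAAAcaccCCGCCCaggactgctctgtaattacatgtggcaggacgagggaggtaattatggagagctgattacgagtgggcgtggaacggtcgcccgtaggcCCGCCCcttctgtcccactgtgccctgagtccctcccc
Of the windows shown, those of the 3 chains that rose each hold 1 CCAAT box and 2 GC boxes and no TATA box. Col11a2, which fell, holds 2 GC boxes and 1 TATA box and no CCAAT box. Other changed chains differ from this: Col17a1, which rose, has 2 TATA boxes and no GC box, both windows of Col6a2 lack the CCAAT box, Col16a1 has 1 GC box, and Col20a1, which fell, has none of the 4 motifs. The 40 members matched had 44 windows of this length. A CCAAT box was in 33.8% of all 32851 promoter windows and in 14 of these 44. A GC box was in 32.7% of all windows and in 24 of the 44. A TATA box was in 12.4% of all windows and in 5 of the 44, and an AP-1 site in 6.75% and in 1, that of Col6a1. Such matches describe the letters only.

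The knock-in was also compared on each Pms1 background, which uses separate libraries. In Pms1+/- striatum 11 members passed the test between Q140 Pms1+/- and Pms1+/-, 6 higher and 5 lower (20.8% of the members and 24.9% of all genes). In Pms1-/- striatum 4 passed, 2 higher and 2 lower (7.55% of the members and 11.1% of all genes). Changed in the same direction on the WT and Pms1+/- backgrounds were 6 genes, which is 54.5% of each list, where the shares over all genes were 58.0% and 72.9%. They were Col11a1, Col6a2, Col25a1 and Lamb1, all higher, and Col11a2 and Col20a1, both lower. With the Pms1-/- background the WT background shared 2 genes, Col25a1 and Col11a2, which is 18.2% and 50% of the lists (26.7% and 75.5% over all genes).

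Col25a1 and Col11a2 passed the test on all 3 backgrounds. Col25a1 ran from 41.7 to 46.2 CPM (median 43.6) in Pms1+/- and 47.1 to 57.9 CPM (median 52.6) in Q140 Pms1+/-, and from 42.6 to 50.0 CPM (median 44.9) in Pms1-/- and 46.1 to 56.1 CPM (median 51.2) in Q140 Pms1-/-. It gave 0.28 ± 0.042 (SE, adjusted p = 6.01e-07) on the Pms1+/- background, without overlap, and 0.17 ± 0.041 (SE, adjusted p = 0.00438) on the Pms1-/- background. Col11a2 gave -0.25 ± 0.083 (SE, adjusted p = 0.0234) and -0.26 ± 0.083 (SE, adjusted p = 0.0317). The direction of both was the same throughout, with Col25a1 up and Col11a2 down.

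Other members passed on the Pms1 backgrounds. Col23a1, a transmembrane collagen, ran from 5.63 to 7.76 CPM (median 6.95) in Pms1+/- and 4.44 to 6.48 CPM (median 4.85) in Q140 Pms1+/-, a log2 fold change of -0.38 ± 0.085 (SE, adjusted p = 6.18e-04). It ran from 6.29 to 10.9 CPM (median 7.14) in Pms1-/- and 5.27 to 6.80 CPM (median 5.73) in Q140 Pms1-/-, a log2 fold change of -0.38 ± 0.083 (SE, adjusted p = 0.00147). The fall was of the same size on both, with overlapping groups, and the value on the WT background was -0.18 (adjusted p = 0.0913). Col2a1 ran from 2.33 to 3.07 CPM (median 2.71) and 2.77 to 4.54 CPM (median 3.31) on the Pms1+/- background, a log2 fold change of 0.37 ± 0.14 (SE, adjusted p = 0.0400). On the Pms1-/- background it ran from 1.57 to 3.39 CPM (median 2.26) and 2.36 to 3.85 CPM (median 3.35), a log2 fold change of 0.42 ± 0.14 (SE, adjusted p = 0.0397), and its value on the WT background was 0.12 (adjusted p = 0.530). Col2a1 thus rose on both Pms1 backgrounds, again with overlap. On the Pms1+/- background Col11a1 ran from 8.56 to 12.1 CPM (median 10.6) and 11.6 to 19.9 CPM (median 13.9), a log2 fold change of 0.47 ± 0.10 (SE, adjusted p = 2.43e-04). Col20a1 ran from 3.37 to 4.66 CPM (median 4.07) and 1.85 to 4.31 CPM (median 2.62) there, a log2 fold change of -0.60 ± 0.12 (SE, adjusted p = 1.75e-04). Col27a1, a fibrillar collagen, ran from 11.0 to 15.6 CPM (median 14.1) and 9.97 to 11.7 CPM (median 10.7), a log2 fold change of -0.37 ± 0.065 (SE, adjusted p = 2.05e-05). Col6a2 ran from 20.6 to 33.3 CPM (median 25.6) and 24.2 to 39.9 CPM (median 34.6), a log2 fold change of 0.34 ± 0.091 (SE, adjusted p = 0.00414). Groups overlapped for all 4. On the WT background Col27a1 was at 0.024 (adjusted p = 0.817). The type IX chain Col9a1 rose on the Pms1+/- background by 0.72 (adjusted p = 0.0351) and Lama3 fell by -0.21 (adjusted p = 0.0175), with WT-background values of 0.57 (adjusted p = 0.0830) and -0.11 (adjusted p = 0.196).

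Whether the knock-in effect differed between the Pms1-/- and WT backgrounds was tested directly. It passed for 4 members (7.55% of the members and 5.05% of all genes), each with a smaller or opposite effect on the Pms1-/- background. For Col5a3 the log2 difference was -0.97 ± 0.22 (SE, adjusted p = 0.00518). Its level ran from 1.57 to 3.85 CPM (median 2.24) in WT and 2.58 to 4.83 CPM (median 3.83) in Q140, but from 3.25 to 6.38 CPM (median 3.90) in Pms1-/- and 2.34 to 4.10 CPM (median 2.84) in Q140 Pms1-/-. WT was thus the low group of the 4, and Pms1-/- without the knock-in the high one. Col17a1 differed by -0.59 ± 0.14 (SE, adjusted p = 0.00553), with 3.54 to 4.73 CPM (median 4.07) in Pms1-/- and 2.91 to 4.36 CPM (median 3.67) in Q140 Pms1-/-. Col6a2 differed by -0.50 ± 0.13 (SE, adjusted p = 0.0141), with 23.9 to 33.7 CPM (median 27.5) and 22.7 to 34.4 CPM (median 29.8). Col11a1 differed by -0.46 ± 0.14 (SE, adjusted p = 0.0395), with 9.59 to 13.3 CPM (median 10.2) and 10.6 to 14.7 CPM (median 12.1). In all 4 the median was higher in Pms1-/- than in WT without the knock-in, and lower in Q140 Pms1-/- than in Q140 with it. The test did not pass for Col25a1, at -0.10 (adjusted p = 0.332). Within the late codes, with only 2 WT and 3 Q140 animals, the 4 differences were -0.82, -0.43, -0.54 and -0.45, in the order given, and none passed.

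**Figure D3:**
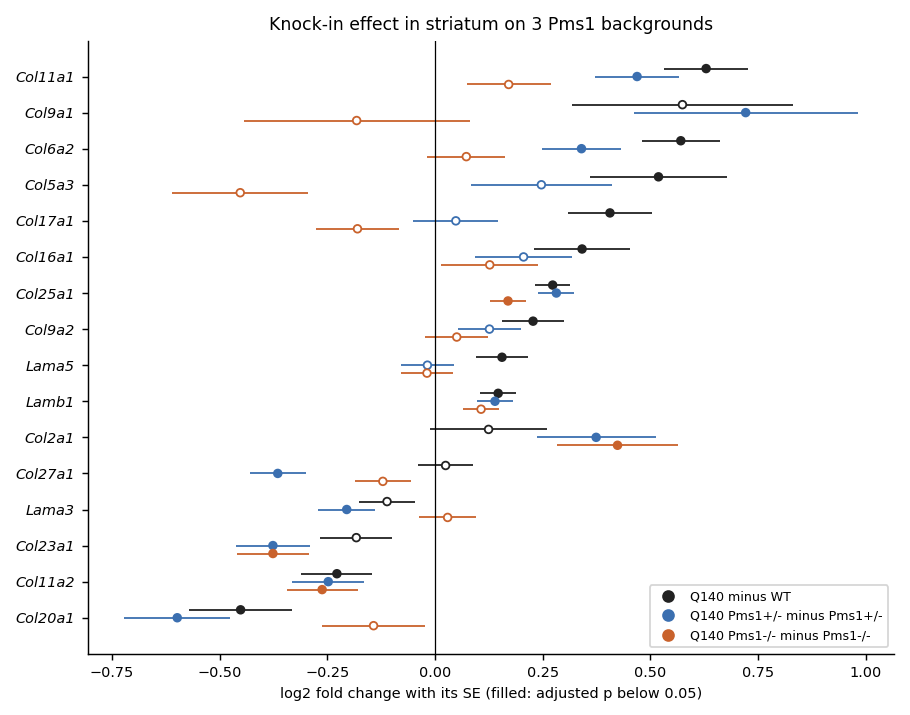
Log2 fold change with the knock-in against without it in striatum on the WT, Pms1+/- and Pms1-/- backgrounds, with standard errors, for the 16 members called on at least 1 of them. Col25a1 lies right of 0 on all 3 backgrounds, and Col5a3 moves from 0.52 on the WT background to -0.45 on the Pms1-/- background.

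Loss of both Pms1 copies without the knock-in was accompanied by higher collagen counts and no passing laminin. In striatum 10 of 53 members were higher and none lower in Pms1-/- than in WT (18.9% of the members, against 4.01% of all genes higher and 7.91% in either direction). The median log2 fold change was 0.15 over the members and 0.0027 over all genes. All 10 were collagens, out of 43, and none of the 10 laminins passed, although the difference between the families was not tested. In cortex of the same animals 11 members were higher and none lower (20.8%, against 5.31% of all genes higher and 9.58% in either direction), with a median of 0.18 over the members and 0.0043 over all genes. Again all 11 were collagens, with a median of 0.23 over the 43 collagens and -0.034 over the 10 laminins.

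Among the genes that passed, Col5a3 had the highest fold change in both tissues. In striatum it ran from 1.57 to 3.85 CPM (median 2.24) in WT and 3.25 to 6.38 CPM (median 3.90) in Pms1-/-, a log2 fold change of 0.69 ± 0.16 (SE, adjusted p = 0.00595). In cortex it ran from 2.80 to 4.30 CPM (median 3.23) and 3.42 to 7.94 CPM (median 5.30), a log2 fold change of 0.70 ± 0.12 (SE, adjusted p = 5.01e-04). The groups overlapped in both tissues. In striatum Col17a1 ran from 2.53 to 3.42 CPM (median 3.01) in WT and 3.54 to 4.73 CPM (median 4.07) in Pms1-/-, a log2 fold change of 0.45 ± 0.10 (SE, adjusted p = 0.00329), without overlap. Col11a1 ran from 7.18 to 11.7 CPM (median 8.60) and 9.59 to 13.3 CPM (median 10.2), 0.31 ± 0.10 (SE, adjusted p = 0.0423). Col6a1 ran from 103 to 171 CPM (median 113) and 141 to 213 CPM (median 155), 0.42 ± 0.12 (SE, adjusted p = 0.0209), and its partner Col6a2 gave 0.36 ± 0.091 (SE, adjusted p = 0.0120). The transmembrane Col23a1 ran from 5.32 to 6.81 CPM (median 5.81) and 6.29 to 10.9 CPM (median 7.14), 0.35 ± 0.083 (SE, adjusted p = 0.00691). These 4 overlapped between groups. The remaining risers, Col4a5, Col27a1, Col19a1 and Col4a2, rose by 0.16 to 0.29 on the log2 scale.

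In cortex Col6a1 ran from 28.8 to 43.6 CPM (median 38.6) in WT and 45.4 to 58.7 CPM (median 52.3) in Pms1-/-, a log2 fold change of 0.45 ± 0.10 (SE, adjusted p = 0.00327). Every Pms1-/- library lay above every WT library. The fibrillar Col24a1 ran from 5.81 to 11.5 CPM (median 7.23) and 8.05 to 14.7 CPM (median 12.5), 0.59 ± 0.15 (SE, adjusted p = 0.0108). Col16a1 ran from 17.7 to 28.0 CPM (median 20.0) and 24.5 to 35.8 CPM (median 32.9), 0.53 ± 0.11 (SE, adjusted p = 0.00333). Groups overlapped for these 2. Col11a1 ran from 15.8 to 26.0 CPM (median 21.0) and 24.2 to 32.3 CPM (median 29.8), 0.48 ± 0.11 (SE, adjusted p = 0.00604), and Col19a1 from 34.1 to 46.7 CPM (median 41.2) and 44.0 to 60.1 CPM (median 55.2), 0.40 ± 0.073 (SE, adjusted p = 8.72e-04). The type IV pair Col4a1 and Col4a2 rose by 0.21 ± 0.053 (SE, adjusted p = 0.00899) and 0.27 ± 0.072 (SE, adjusted p = 0.0148), and Col27a1, Col6a2 and Col15a1 by 0.27 to 0.29. Higher in both tissues of these animals were Col4a2, Col5a3, Col6a1, Col6a2, Col11a1, Col19a1 and Col27a1. Since both tissues come from the same animals, the second tissue is no separate set of mice.

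**Figure D4:**
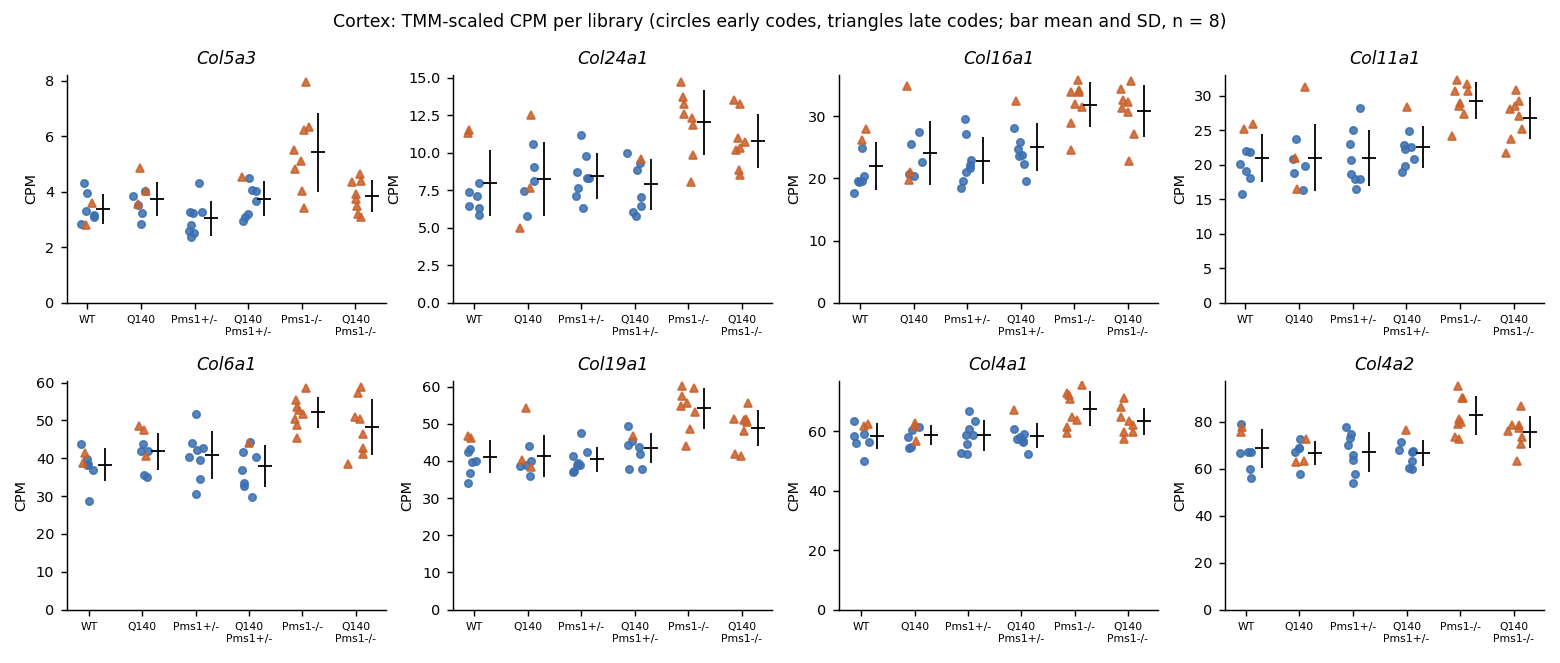
CPM in every cortical library by genotype, with a bar for each group's mean and SD, for 8 of the 11 collagens higher in Pms1-/- than in WT. Col6a1 lies at 45.4 to 58.7 CPM in Pms1-/- and at 28.8 to 43.6 CPM in WT.

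The calls for Pms1-/- thinned once the code period was taken into account. With early or late code as a term, 6 of the 10 striatal genes still passed (Col4a2, Col6a2, Col17a1, Col19a1, Col23a1 and Col27a1). In cortex 2 of the 11 did (Col5a3 and Col6a2), with Col25a1 called lower in addition. The share of all genes that passed with this term is not given here. The median log2 fold change over all 53 members with this term was 0.19 in striatum, in place of 0.15. In cortex it was 0.058, in place of 0.18, so that the members' median fell with the term in cortex only. Among late-coded animals, 8 Pms1-/- against 2 female WT, all 10 striatal log2 fold changes were above 0, at 0.14 to 0.53. None of these 10 passed (smallest adjusted p = 0.107), while 1 other member did, Col2a1, at -0.83 (adjusted p = 0.0311), where 0.513% of all genes passed. The 10 genes had been chosen with the same Pms1-/- animals, and over all 53 members 40 were above 0 in striatum, with a median of 0.12 in place of 0.15. In cortex all 11 were above 0, at 0.13 to 0.86, with none passing (smallest adjusted p = 0.0664), and Col25a1 was called lower at -0.40 (adjusted p = 0.00551), where 1.67% of all genes passed. Over all 53 members in cortex only 28 were above 0 among late codes, with a median of 0.028 in place of 0.18. Within the late codes Col6a1 in cortex ran from 38.7 to 41.3 CPM (median 40.0) in the 2 WT animals. Code period and loss of Pms1 cannot be told apart for the most part in this design.

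**Figure D5:**
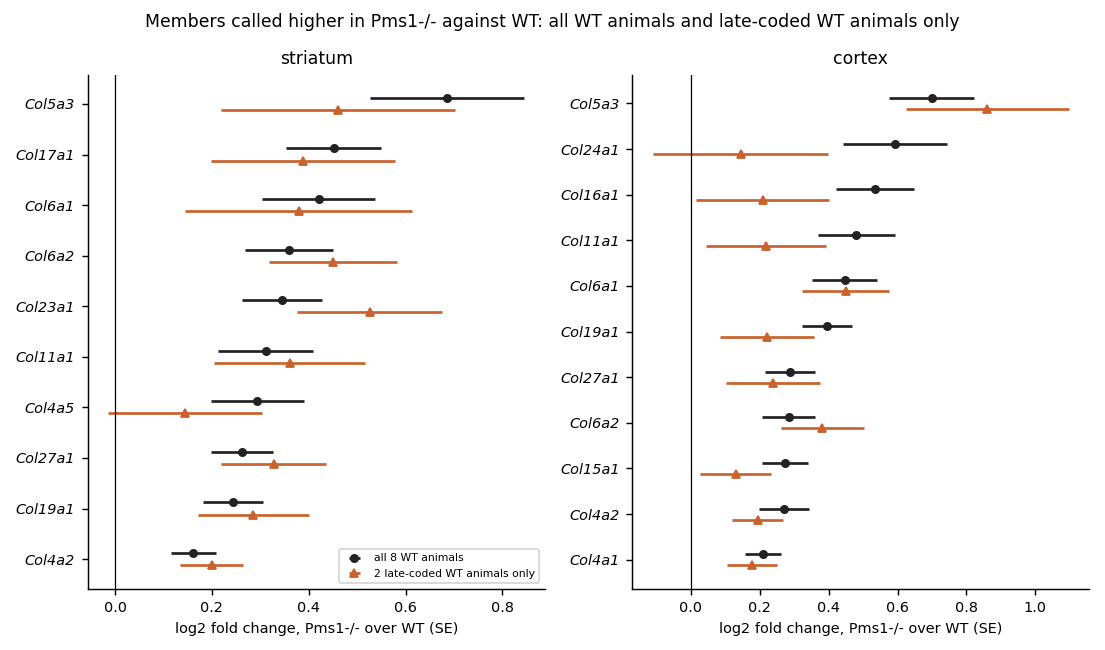
Log2 fold change of Pms1-/- against WT for the genes called in each tissue, from all animals and from late-coded animals only, with standard errors. All late-coded values lie right of 0 (0.14 to 0.53 in striatum and 0.13 to 0.86 in cortex), with wider errors, for genes that were chosen with the same Pms1-/- animals.

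Some markers of several cell types passed in this contrast, nearly all of them lower in Pms1-/-. Over all genes 7.91% passed in striatum and 9.58% in cortex. In striatum 2 of 12 endothelial markers, 2 of 8 microglial markers and 1 of 6 oligodendrocyte precursor markers were lower and 1 of 12 mural markers was higher. In cortex 2 of 8 microglial markers, 2 of 8 astrocyte markers (Sox9 and Aqp4) and 1 of 8 each of the striatal and cortical projection neuron markers (Penk and Neurod6) were lower. There 5 of 12 endothelial markers and 1 of 12 mural markers were lower in Pms1-/-, with endothelial sums of 349.7 to 418 CPM in WT and 361 to 413 CPM in Pms1-/-. Fibroblast markers had no call in either tissue, with cortical sums of 98.8 to 156 CPM in WT and 76.3 to 131 CPM in Pms1-/-. Their part in the collagen differences was not tested. Without the 3 libraries high in choroid plexus markers the same 11 cortical genes passed, and the share of all genes in that fit is not given here.

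Loss of 1 Pms1 copy left no member past the threshold. Between Pms1+/- and WT striatum edgeR called none of the 53 genes, as it called 0% of all genes, with 13 members at an unadjusted p below 0.05 and 1 called by DESeq2. The smallest adjusted p was that of Col27a1, with a log2 fold change of 0.26 (adjusted p = 0.161). Between Pms1+/- and WT cortex edgeR also called none (0% of all genes), with 7 at an unadjusted p below 0.05 and 0 by DESeq2. With the knock-in present, Q140 Pms1+/- against Q140 gave 0 calls in striatum (0% of all genes, 3 members at an unadjusted p below 0.05) and 0 in cortex (0%, also 3), with 0 by DESeq2 in each.

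With the knock-in present, 1 member was higher in striatum of animals lacking both copies, Col15a1 (1.89% of the members and 7.1% of all genes). It ran from 3.14 to 4.88 CPM (median 3.90) in Q140 and 3.99 to 5.74 CPM (median 4.93) in Q140 Pms1-/-, with a log2 fold change of 0.30 ± 0.082 (SE, adjusted p = 0.0125). Among late-coded animals its value was 0.27 (adjusted p = 0.437). None of the 11 genes that the knock-in changed against WT passed in this contrast: Col11a1 was at -0.15 (adjusted p = 0.418) and Col25a1 at -0.10 (adjusted p = 0.130). All 8 striatal projection neuron markers were higher in Q140 Pms1-/- (7506 to 8933 CPM) than in Q140 (6443 to 7366 CPM), and their part was not tested.

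Among the genotype contrasts in cortex, those other than Pms1-/- against WT reached no member by edgeR. Q140 against WT gave 0 calls by edgeR and by DESeq2, with 2 members at an unadjusted p below 0.05 (0.0428% of all genes were called). Q140 Pms1+/- against Pms1+/- gave 0 calls by both tools with 7 such members (0.112% of all genes). Q140 Pms1-/- against Pms1-/- gave 0 by edgeR and 1 by DESeq2 with 4 such members (0.0428% of all genes), and Q140 Pms1-/- against Q140 gave 0 by edgeR and 1 by DESeq2 with 12 such members (0.0107% of all genes). The test of the knock-in effect between backgrounds gave 0 calls by both tools with 2 such members (0% of all genes). Col11a1 ran from 15.8 to 26.0 CPM (median 21.0) in WT cortex and 16.3 to 31.3 CPM (median 20.3) in Q140 cortex, a log2 fold change of -0.0035 ± 0.11 (SE, adjusted p = 0.998).

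The difference in the knock-in effect between the tissues passed the test for 3 members, all with the larger effect in striatum (5.66% of the members and 13.3% of all genes). For Col11a1 it was 0.62 ± 0.15 (SE, adjusted p = 0.00195), for Col25a1 0.39 ± 0.083 (SE, adjusted p = 2.42e-04) and for Col6a2 0.38 ± 0.12 (SE, adjusted p = 0.0210). These 3 genes were the ones with the smallest p-values in Q140 striatum.

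Females and males differed in a few members, tested across all genotypes. In striatum 2 were higher and 1 lower in females (5.66% of the members and 6.16% of all genes). Col26a1, a collagen with an EMI domain, ran from 4.31 to 7.72 CPM (median 5.56) in 24 females and 2.44 to 6.02 CPM (median 4.02) in 24 males, a log2 difference of 0.50 ± 0.071 (SE, adjusted p = 5.37e-06). The sexes overlapped. Col20a1 differed by 0.26 ± 0.069 (SE, adjusted p = 0.0168) and Col6a2 by -0.18 ± 0.052 (SE, adjusted p = 0.0350). In cortex 2 were higher in females (3.77% of the members and 5.36% of all genes), Col17a1, at 0.501 to 1.90 CPM (median 1.05) against 0.387 to 1.17 CPM (median 0.741) and a difference of 0.52 ± 0.11 (SE, adjusted p = 0.00312), and Col25a1, at 0.14 ± 0.041 (SE, adjusted p = 0.0350). With a correlation within first code numbers, limma-voom kept 1 of these calls in each tissue, Col26a1 in striatum (adjusted p = 1.20e-04) and Col17a1 in cortex (adjusted p = 0.0168).

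Genes that fold, process, bind or degrade collagens and laminins were counted by list. In Q140 striatum 1 of 17 folding and modifying enzymes rose, P4ha3 (0.49, adjusted p = 0.0123), and 3 fell, the prolyl hydroxylase subunits P4ha1 (-0.57, adjusted p = 8.10e-08) and P4hb (-0.13, adjusted p = 1.88e-06) and P3h3 (-0.18, adjusted p = 0.00342). Of 12 processing and cross-linking enzymes tested 3 fell, the procollagen proteinases Adamts2 (-0.62, adjusted p = 1.87e-08) and Bmp1 (-0.21, adjusted p = 8.22e-05) and the type IV cross-linker Pxdn (-0.45, adjusted p = 5.24e-09), while Tll1 rose (0.37, adjusted p = 0.00558). These counts stand beside the 31.3% of all genes that passed in this comparison. Of 15 receptors tested the integrin chain Itga3 rose (0.22, adjusted p = 0.00216) and the integrin chains Itga1 (-0.20, adjusted p = 0.0127) and Itga6 (-0.17, adjusted p = 0.0127) and dystroglycan, Dag1 (-0.13, adjusted p = 1.49e-06), fell. Of 13 other basement membrane components Smoc1 and Agrn rose and Fras1 fell, and of 11 proteases and inhibitors Timp2 rose (0.27, adjusted p = 3.05e-10). In Q140 Pms1-/- against Q140, 4 of the 12 processing enzymes were higher, Adamts2 (0.45, adjusted p = 1.26e-04), Pxdn (0.26, adjusted p = 0.00107), Bmp1 (0.19, adjusted p = 0.00161) and Adamts3 (0.19, adjusted p = 0.0230). P3h3 was also higher (0.17, adjusted p = 0.0255) and Timp2 lower (-0.10, adjusted p = 0.0359). In that contrast 7.1% of all genes passed.

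In Pms1-/- cortex the collagen chaperone Serpinh1 fell (-0.32, adjusted p = 0.00586) along with P4ha1 and P4hb, and P3h3 rose, out of 17 folding enzymes. Of 11 processing enzymes tested Bmp1 (0.41, adjusted p = 7.85e-04) and Pxdn rose and the cross-linkers Lox (-0.94, adjusted p = 0.0251) and Loxl1 fell. Agrn, Frem1 and Sparc rose and Smoc1 fell among 14 other basement membrane components, and Dag1 fell among 15 receptors. Timp1 (-1.005, adjusted p = 0.0405) and Mmp15 fell and Mmp16 (0.26, adjusted p = 0.0183) rose among 12 proteases and inhibitors. In Pms1-/- striatum 1 of 17 folding enzymes fell (P4ha1), and Bmp1, Agrn and Timp2 rose while Loxl1 and Itgb1 fell in the other lists. These counts stand beside 9.58% of all genes in cortex and 7.91% in striatum.

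How single chains followed the cell type markers was measured across the 48 animals of each tissue, as deviations from genotype and sex means on the log2 scale. There were 30 relations, each with a two-sided permutation test of 100000 resamples. The resampling did not account for the group means removed beforehand, so its p-values are somewhat too small. Col1a2 followed the summed fibroblast markers in cortex with Pearson's r = 0.851 (permutation p = 1e-05, the smallest the resamples can give, adjusted 7.5e-05) and Spearman's rho = 0.858 (p = 1e-05, adjusted 1e-04). Without the 2 libraries farthest in marker level r was 0.811, within females 0.848, within males 0.857, within early codes 0.860 and within late codes 0.839. In striatum r was 0.691 (rho 0.350, adjusted permutation p = 0.0003 and 0.0381), but 0.331 without the 2 farthest libraries. The striatal r was 0.179 in females and 0.765 in males, and 0.789 within early and 0.481 within late codes. Its size thus depended much on the 2 farthest libraries and on sex. Col3a1 with fibroblast markers gave r = 0.598 in striatum (rho 0.326, adjusted permutation p = 0.000771 and 0.0471), but 0.223 without the 2 libraries. Within early codes Col3a1 gave 0.557 in striatum and within late codes 0.662. It gave r = 0.578 in cortex (rho 0.616, adjusted permutation p = 0.00024 and 0.0001; 0.592 without the 2 libraries, 0.778 within early and 0.363 within late codes). Col4a1 followed endothelial markers in cortex at r = 0.451 (rho 0.481, adjusted permutation p = 0.00442 and 0.00265; 0.512 without the 2 libraries, 0.479 within early and 0.490 within late codes). In striatum this was 0.267 (rho 0.290, adjusted permutation p = 0.098 and 0.0763). Lama2 followed mural markers in striatum at r = 0.438 (rho 0.394, adjusted permutation p = 0.00567 and 0.0172; 0.489 without the 2 libraries, 0.292 within early and 0.608 within late codes). In cortex it was 0.250 (rho 0.197, adjusted permutation p = 0.119 and 0.244). The chains were not tied to a single marker list. Col3a1 also followed mural markers, at r = 0.438 in cortex and 0.405 in striatum (adjusted permutation p = 0.00567 and 0.0107). Col1a2 followed endothelial markers in cortex at r = 0.400 (adjusted permutation p = 0.0108). With mural markers in striatum Col1a2 gave r = 0.420 (adjusted permutation p = 0.00821), but 0.198 without the 2 libraries.

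The type IV chains are encoded as 3 pairs of genes that start next to each other and are read in opposite directions. Col4a1 and Col4a2, whose annotated gene bodies overlap by 22 bases on chromosome 8, gave r = 0.710 in striatum and 0.685 in cortex (rho 0.700 and 0.619, each with an adjusted permutation p of at most 0.00015). Without the 2 farthest libraries these were 0.635 and 0.637, and within early and late codes 0.800 and 0.537 in striatum and 0.786 and 0.514 in cortex. Col4a3 and Col4a4 gave r = -0.057 in striatum (adjusted permutation p = 0.781, rho -0.078) and 0.658 in cortex (rho 0.492, adjusted p = 7.5e-05 and 0.00265), where r was 0.836 in females and 0.170 in males. Without the 2 farthest libraries the cortical r was 0.509, with 0.582 in early and 0.735 in late codes. The 2 genes had WT means of 0.0664 ± 0.0163 and 0.0730 ± 0.0184 FPKM in striatum and 0.0814 ± 0.0137 and 0.101 ± 0.0156 FPKM in cortex. Col4a5 and Col4a6, 1308 bases apart on chromosome X, gave r = -0.269 in striatum (rho -0.268, adjusted permutation p = 0.098) and 0.399 in cortex (rho 0.419, adjusted p = 0.0108 and 0.0132). That value was 0.369 without the 2 farthest libraries, 0.388 in early and 0.441 in late codes. Of the 3 pairs only Col4a1 and Col4a2 have annotated gene bodies that overlap each other. How reads over both of these genes were counted is not known here, and the strand setting of the counting is not stated in the sources. The part of such reads in these relations was not tested.

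The gap between the GENCODE M21 starts of Col4a4 (minus strand) and Col4a3 (plus strand) is 71 bases long, at chr1:82586850-82586920. Its letters were taken from the RefSeq window of Col4a4 in GRCm38.p6. The gap is printed on the plus strand because it is the whole stretch between the starts of this pair. The r of this pair was near 0 in striatum and 0.658 in cortex. No capital appears in it, since none of the 4 motifs searched is present.
Col4a4 to Col4a3: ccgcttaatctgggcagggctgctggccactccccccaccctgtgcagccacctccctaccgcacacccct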

How the data were processed

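RNA from striatum and cerebral cortex was sequenced as stranded TruSeq libraries, per the labels' protocols. The authors deposited 1 table of read counts and 1 table of FPKM values, with 1 column per library. The tools named in the submitters' processing notes are HTSeq 0.12.3, STAR 2.7.5c and SAMtools 1.10, with mm10 and GRCm38 as builds. The sources used here do not state the annotation release, the strand setting or the FPKM divisor.

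Counts were fitted over all genes with edgeR 4.0.16 in R 4.3.3 (filterByExpr, TMM, robust quasi-likelihood, Benjamini-Hochberg adjustment over all genes tested, threshold 0.05), per tissue on genotype and sex over 48 libraries, or on both tissues over 96. Alternatives were DESeq2 1.42.0, limma 3.58.1 on log2(FPKM + 0.1), other scalings, no filter on low counts, 1 sex, and early or late codes (the last 2 fits within a code period were added after the data were seen). The scripts were tested on simulated data.

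The members and gene lists were chosen with earlier results of these data known. Genes given with CPM levels were mainly the called members with the largest fold changes at a mean of at least 0.5 CPM. The limits were up to 12 for Q140 against WT in striatum, up to 6 elsewhere and 8 in each direction between tissues. FPKM values were given mainly for the highest chain of each class. Both tissues come from the same animals by label, and over 48 animals the deviations of the 2 libraries had a median correlation of 0.115 (lowest 0.0395, 32 above 0.1). Animals that shared a first code number had a consensus correlation of 0.133 in striatum and 0.131 in cortex. Gene positions are those of GENCODE M21, whose identifiers matched 48349 of the 48795 genes. RefSeq promoter windows matched 40 of the 54 members. Of the 55 genes that meet the naming rule and the minimum, 1 is not reported here. Samples were grouped by their labelled genotype and tissue, and library totals ran from 27993751 to 56364535 counts, so that low chains carry more counting error.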

Additional observations from a re-analysis of the deposited data

Results flagged for a closer look

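Among 63 groups of 8 values examined, 5 held a library far from the other 7, where chance alone gives about 5% of such groups. In striatum the highest Q140 library for Col9a2 was at 9.52 CPM, with the next at 7.50 CPM. The highest Pms1-/- library for Col5a3 was at 6.38 CPM, with the next at 4.41 CPM. Col6a1 had such a library at 213 CPM in Pms1-/- (next 173 CPM) and at 171 CPM in WT (next 133 CPM). In cortex the lowest WT library for Col6a1 was at 28.8 CPM, with the next at 36.9 CPM.

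The knock-in effect differed between the Pms1-/- and WT backgrounds in striatum by -0.46 on the log2 scale for Col11a1, -0.59 for Col17a1, -0.97 for Col5a3 and -0.50 for Col6a2, each by an interaction test in edgeR with an adjusted p below 0.05. The knock-in effect was larger in striatum than in cortex by 0.62 for Col11a1, 0.39 for Col25a1 and 0.38 for Col6a2, by the same kind of test.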

How the results depend on the processing

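Counts of members past the threshold that moved by over 1.5 times are given by setting, with the reported count first. With females only: striatum Q140 against WT 11 and 6, Pms1-/- against WT 10 and 5, Q140 Pms1-/- against Q140 1 and 0, Q140 Pms1+/- against Pms1+/- 11 and 5, the difference between backgrounds 4 and 1, cortex Pms1-/- against WT 11 and 4, and cortex Q140 Pms1-/- against Pms1-/- 0 and 1. With males only: 11 and 5, 10 and 0, 1 and 0, 11 and 6, 4 and 0, and 11 and 0 for the first 6 of these, with striatum Q140 Pms1-/- against Pms1-/- 4 and 0 and cortex Q140 Pms1+/- against Pms1+/- 0 and 2. Fewer animals enter each of these fits. Among late codes only: striatum Q140 against WT 3, Pms1-/- against WT 1, Q140 Pms1-/- against Q140 0, the difference between backgrounds 0, and cortex Pms1-/- against WT 1. With the code period as a term Pms1-/- against WT gave 6 in striatum and 3 in cortex.

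DESeq2 called 1 member where edgeR called 0 in striatum Pms1+/- against WT, in cortex Q140 Pms1-/- against Q140 and in cortex Q140 Pms1-/- against Pms1-/-. Library totals alone, and limma on log2 FPKM, each called 2 for striatum Q140 Pms1-/- against Q140. Without a filter, striatum Q140 Pms1-/- against Pms1-/- gave 2 (from 4) and cortical sex 1 (from 2). With a correlation within first code numbers, limma-voom gave 1 for sex in each tissue, and limma on log2 FPKM gave 1 for sex in cortex and 5 (from 3) for the knock-in effect between tissues. For sex in striatum DESeq2 gave 5 (from 3). The causes were not tested. Signs turned in 3 places: among late codes for Col16a1 (-0.17) and Lama5 (-0.022) in Q140 striatum, and in females for Col1a2 with mural markers in striatum (r = -0.093). With the animal as a replicate block, pairing the tissues, 43 members in place of 41 passed between WT tissues and 3 in each fit for the knock-in effect between tissues.

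Depth limits the chains at a few CPM, where counting error is a larger part of the spread, and groups of 8 leave small changes undetected. The late-coded fits rest on 2 WT and 3 Q140 animals.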

Other observations

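Col6a4, a type VI collagen chain, fell into separate levels among WT animals. In striatum 5 animals were at 6.88, 7.23, 7.36, 7.98 and 8.20 CPM and 3 at 20.7, 22.5 and 23.4 CPM. In cortex those 5 were at 0.354, 0.410, 0.574, 0.689 and 0.725 CPM and those 3 at 3.77, 3.99 and 5.77 CPM. Each animal thus kept its side in both tissues. The WT animals 11-2 and 11-4 share a first code number and lay on opposite sides, at 8.20 and 22.5 CPM in striatum, as did 27-2 and 27-5, at 6.88 and 20.7 CPM. Outside WT, the animals below 1 CPM in cortex were Q140 animal 7-3, at 0.659 CPM with 6.68 CPM in striatum, and Q140 Pms1-/- animal 28-4, at 0.604 CPM with 5.99 CPM in striatum. No Pms1+/- or Pms1-/- animal without the knock-in was below 1.35 CPM in cortex. The pattern was noticed in these data and was not tested.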
